A study of Mus musculus with 2 samples.

Results

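Growth hormone transcripts dominated a small set of barcodes among the sorted Sox9iresGFP cells of the neonatal mouse pituitary. These Gh-rich barcodes numbered 95 of the 13613 barcodes that were kept in 2 single-cell libraries, 65 of them male and 30 female. They were selected on their own transcripts: at least 1 unique molecular identifier (UMI, 1 counted transcript molecule) of *Pou1f1*, *Gh* at 1% or more of all UMIs, more *Gh* than *Prl* UMIs, *Cga* under 2000 counts per 1000000 UMIs (CPM), and at most 2 UMIs of *Col1a1* and *Col3a1* together. The levels of these 6 genes are therefore set by the selection and are given as a description. With 1 library per sex no test between libraries was possible. Intervals are exact 95% intervals (Poisson for levels, Clopper-Pearson for shares, binomial for ratios), and cover counting error only.

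Somatotrophs secrete growth hormone, which acts on bone and liver and drives postnatal growth, largely through insulin-like growth factor 1. They arise under the pituitary transcription factor POU1F1, which they share with lactotrophs (prolactin) and thyrotrophs (thyroid stimulating hormone). Hypothalamic growth hormone-releasing hormone acts on them through its receptor GHRHR, a receptor that raises cyclic AMP, while somatostatin acts through its own receptors to hold secretion down.

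Both libraries came from pituitaries of Sox9iresGFP/+ mice at postnatal day 3, 1 from males and 1 from females, and each pooled 3 pituitaries. Cells were sorted for GFP, which is made from the *Sox9* locus of stem cells and outlasts SOX9 itself, so that the gate can also hold cells that have left the stem cell state. The labels call the sorted cells stem cells, and *Sox2*, a stem cell factor, had a UMI in 5899 of 8009 male and 4879 of 5604 female kept barcodes. Those outside the *Pou1f1* classes described below, 5528 and 4742, are called *Sox2*-positive barcodes. Median depth of the kept barcodes was 11108 UMIs in male and 9892 in female barcodes. In all, 19 barcode sequences occurred in both libraries, none of them Gh-rich. *Xist*, the transcript that silences an X chromosome in females, stood at 0.426 CPM in male and 639 CPM in female barcodes.

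The share of Gh-rich barcodes was 0.812% (0.627 to 1.03) in male and 0.535% (0.361 to 0.763) in female barcodes, a male to female ratio of 1.52 (0.969 to 2.42) whose interval includes equal shares. Counted against all kept barcodes with a *Pou1f1* UMI, 1073 male and 365 female, the shares were 6.06% and 8.22%, and the ratio was 0.737 (0.471 to 1.18). The order of the libraries thus turned with the denominator, within an interval that allowed either order. Few barcodes lay near the limit of 1%. The lowest member had 2.53% *Gh* in male and 3.78% in female barcodes, and the highest barcode that met every other condition had 0.703% and 0.634%. Between 0.5 and 1% there were 3 male barcodes and 1 female barcode.

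*Gh* (chr11:106300271-106301865, mm10) made up 2.53 to 46.5% of UMIs in single male members, with a median of 14.8%. In the female members it made up 3.78 to 51.9%, with a median of 28.1%. The 2 ranges overlap almost fully, but *Gh* reached 20% of UMIs in 20 of 65 male and 24 of 30 female members. Median *Gh* UMIs per barcode were closer, 3559 in male and 4640.5 in female barcodes. The medians of all other UMIs were farther apart, 20094 in male and 9906.5 in female barcodes. Summed over members, *Gh* stood at 171694 CPM (171029 to 172361) in male and 282317 CPM (280840 to 283800) in female barcodes.

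Some *Gh* was present in barcodes of every class. In *Sox2*-positive barcodes it averaged 175 CPM in male and 159 CPM in female barcodes, and 35.1% and 30.7% of them held a *Gh* UMI at median depths of 11184 and 9899.5 UMIs. The median barcode held 0 *Gh* UMIs, and the class includes 28 male and 13 female barcodes at 1% *Gh* or more that missed another condition of the selection. They held 7614 of 12854 and 2892 of 8460 *Gh* UMIs, and without them the levels were 71.3 and 105 CPM. Thinned to 5000 UMIs each, 19.5% held a *Gh* UMI in either library. Barcodes rich in collagen transcripts, which are not expected to make *Gh*, had 46.3 and 51.4 CPM. Those rich in *Pomc*, the precursor of corticotrophin, had 27.5 and 21.7 CPM.

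**Figure D1:**
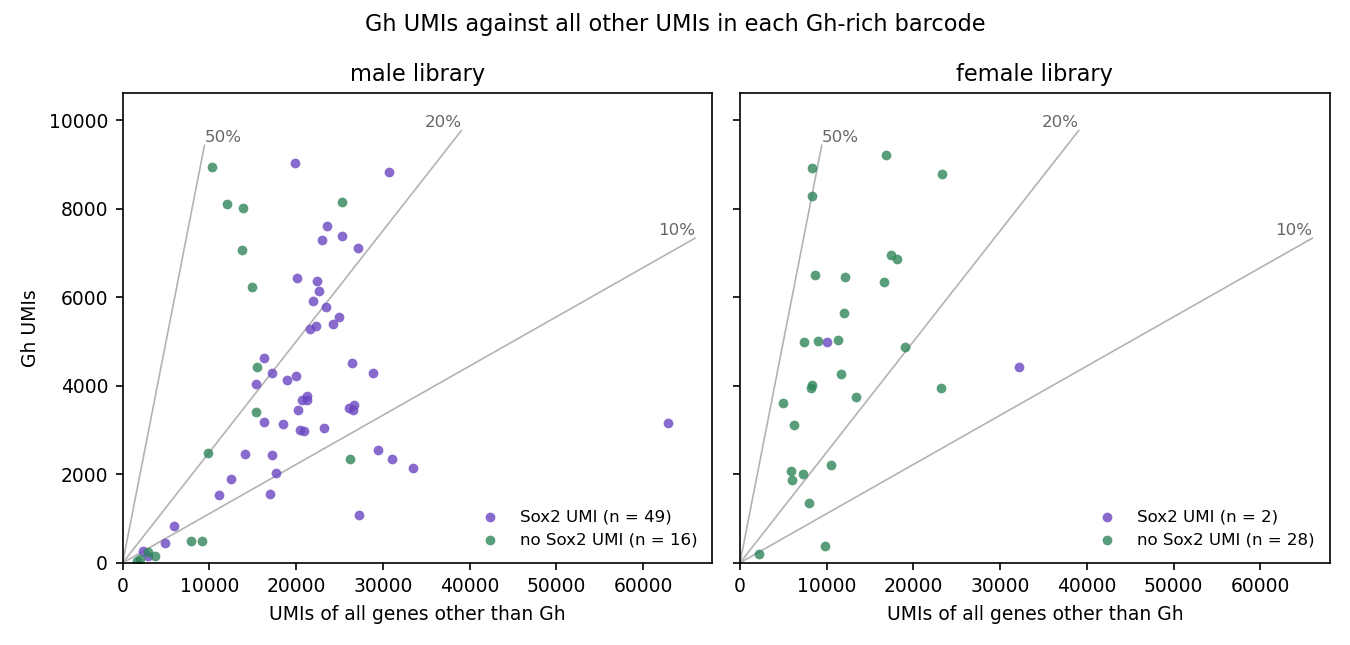
Each point is 1 Gh-rich barcode, with its UMIs of all genes other than *Gh* (x axis) and its *Gh* UMIs (y axis), for the male (65) and female (30) library. Grey lines mark *Gh* shares of 10, 20 and 50%, and colour marks a *Sox2* UMI. Most male members have a *Sox2* UMI and lie to the right, with a median of 20094 other UMIs against 9906.5 in the female library.

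The 2 libraries stood apart in stem cell transcripts, which most male members also carried and which bear on every later comparison. *Sox2* had a UMI in 49 of 65 male and 2 of 30 female members. Male members held 0 to 29 *Sox2* UMIs with a median of 5, and female members 0 to 9 with a median of 0. Of 6 stem cell markers (*Sox2*, *Sox9*, *Aldh1a2*, *Ednrb*, *Cyp2f2*, *Rbpms*), at least 2 had a UMI in 54 male members and 1 female member. Their summed level was 1067 CPM in male and 76.6 CPM in female members, ranging over barcodes from 0 to 2784 and from 0 to 819.96 CPM, and *Ednrb* and *Cyp2f2* were at 0 in the female members. At an equal 5000 UMIs, averaged over 20 draws, 68.2% of 59 male and 3.28% of 29 female members held at least 2 of the markers, against 32.1% and 36.3% of the Gh-poor *Pou1f1* barcodes that are defined below. *Gh* UMIs count in the 5000, here and in every thinned share below. Fewer UMIs of other genes were therefore left in members than in Gh-poor barcodes, and fewest in female members.

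Members with a *Sox2* UMI also differed in depth from those without. A *Sox2* UMI is itself more likely to be counted in a deeper barcode, so depth is not independent of this split. In the male library, the median of UMIs other than *Gh* was 21236 in the 49 members with a *Sox2* UMI and 11157 in the 16 without, while the female members without had 9427.5. Median *Gh* UMIs were 3670 in the 49 and 2941 in the 16. The transcript of the sorted reporter, eGFP, was counted in 11 male members, all of them with a *Sox2* UMI, at 8.74 CPM over all 65. The 16 male members without a *Sox2* UMI held 0 eGFP UMIs among 245067 UMIs, and the 49 held 13 among 1242968. The depth of the 16 is too low for this 0 to show that eGFP goes with *Sox2*. In the 30 female members eGFP was at 0 UMIs, for a limit of 6.05 CPM. *Sox2*-positive barcodes stood at 17.3 CPM of eGFP in male and 12.8 CPM in female barcodes. Scrublet, a doublet caller, marked 1 male and 2 female members among the 513 male and 251 female barcodes with the highest scores. Whether RNA of more than 1 cell in a barcode has a part in the stem cell transcripts was not tested. Values are therefore given below also without the members that hold a *Sox2* UMI, which leaves 16 male and 28 female barcodes and turns the male to female ratio of shares to 0.3998 (0.202 to 0.765).

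**Figure D2:**
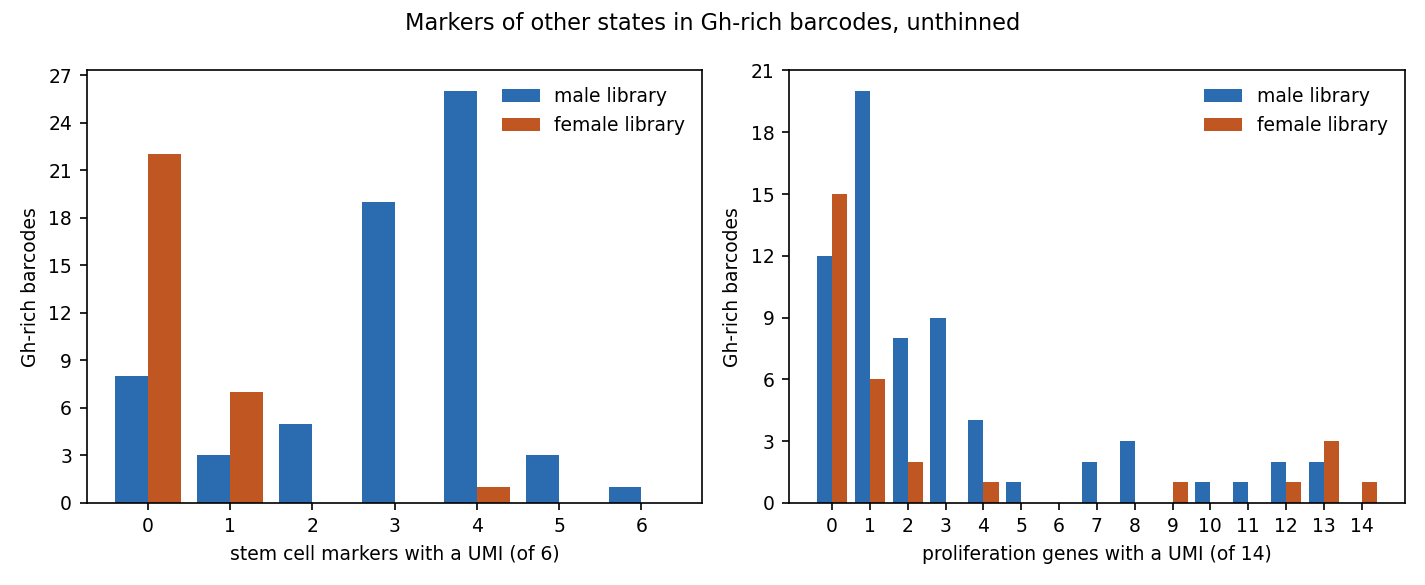
Number of Gh-rich barcodes (y axis) by how many of 6 stem cell markers (left) or 14 proliferation genes (right) had at least 1 UMI, unthinned, in the male (blue) and female (orange) library. At least 2 stem cell markers were present in 54 of 65 male members and in 1 of 30 female members, while 7 or more proliferation genes were present in 11 and 6.

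Of the 5 somatotroph markers, *Gh*, *Ghrhr*, *Pou1f1*, *Pappa2* and *Dlk1*, the selection itself used *Gh* and *Pou1f1*. *Ghrhr* and *Pappa2* stood higher in the members than in the Gh-poor *Pou1f1* barcodes. *Dlk1* did not separate the members from other cells. The list was chosen with earlier results of these data known, so these levels are a description and not an independent check of cell type. *Ghrhr* (chr6:55376295-55388530), the receptor for growth hormone-releasing hormone, was not used in the selection. Single male members held 0 to 11 *Ghrhr* UMIs with a median of 2, and female members 0 to 6 with a median of 3. It was counted in 56 of 65 male and 26 of 30 female members, at 115 CPM (98.3 to 133) and 167 CPM (133 to 207). In *Sox2*-positive barcodes it stood at 0.149 and 0.0564 CPM, and in the Gh-poor *Pou1f1* barcodes at 0.851 CPM and at 0 UMIs. Thinned to 5000 UMIs, 32.2% (20.6 to 45.6) of male and 58.6% (38.9 to 76.5) of female members held a *Ghrhr* UMI, against 0.0415% and 0.0216% of *Sox2*-positive barcodes. *Ghrhr* was thus present with *Gh* in most members of either library and nearly absent elsewhere. Without the members that hold a *Sox2* UMI it was 155 CPM in male and 171 CPM in female barcodes, a ratio of 0.907 (0.598 to 1.36).

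*Pappa2* (chr1:158711727-158980490) encodes a protease that frees insulin-like growth factors from their binding proteins. Male members held 0 to 3 *Pappa2* UMIs with a median of 0, and female members 0 to 8 with a median of 1. It was counted in 20 members of either library, which is 30.8% of the male and 66.7% of the female members. The levels were 18.1 CPM (11.96 to 26.4) in male and 88.7 CPM (64.5 to 119) in female members, against 1.14 and 4.08 CPM in Gh-poor *Pou1f1* barcodes. *Pappa2* was therefore above the comparison class in either library, and female members exceeded male members 4.89 times. That gap was there among members without a *Sox2* UMI too, with 2 UMIs in 16 male barcodes (8.16 CPM) and 42 UMIs in 28 female barcodes (94.5 CPM). Over members with a *Sox2* UMI, the 49 male barcodes stood at 20.1 CPM.

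*Dlk1* (chr12:109452823-109463336), an imprinted gene for a membrane protein with growth factor-like repeats, was counted in every member, with 2 to 209 UMIs in male and 13 to 78 in female barcodes. Its level of 2886 CPM in male and 2186 CPM in female members stood beside 2002 and 2844 CPM in Gh-poor *Pou1f1* barcodes and 1876 and 1995 CPM in *Sox2*-positive barcodes. The log2 ratio over the Gh-poor class was 0.53 in male and -0.38 in female barcodes, and the female value changed sign to 0.10 when *Gh* and *Prl* UMIs were left out of the total. *Pou1f1* (chr16:65520511-65535005) itself stood at 231 CPM in male and 423 CPM in female members, below the 949 and 784 CPM of the Gh-poor class, which was chosen at 2 *Pou1f1* UMIs or more.

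Transcripts of the other pituitary hormones were scarce. *Prl*, which encodes prolactin, had 3 UMIs in the 65 male members. It had 0 in the 30 female members, for a limit of 6.05 CPM and an exact upper end of 7.44 CPM. *Tshb*, the beta chain of thyroid stimulating hormone, stood at 7.39 CPM in male and 28.2 CPM in female members. *Cga*, the alpha chain shared by 3 pituitary hormones and limited by the selection, stood at 41.7 and 2.02 CPM. The 5 lactotroph genes summed to 255 and 339 CPM, mostly from *Cartpt*, against 129 and 152 CPM in Gh-poor and 12868 and 7554 CPM in Prl-rich barcodes. The gonadotroph genes *Lhb*, *Fshb* and *Gnrhr* were at 0 UMIs in both libraries. *Pomc* stood at 1419 CPM in the male members, but 1 barcode held 1903 of its 2111 UMIs, and without it the level was 143 CPM, beside 64.5 CPM in the female members. Markers of endothelium, blood and pituicytes summed to 3.36, 0.672 and 3.36 CPM in the male members and to 8.06 CPM, 0 UMIs and 0 UMIs in the female members.

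Of 10 genes for receptors of the growth hormone axis, 2 reached the level needed for a comparison, *Ghrhr* and *Igf1r*. The somatostatin receptor gene *Sstr3* had 6 UMIs in 6 male and 6 UMIs in 6 female members, and *Sstr2* had 0 and 1 UMI. *Sstr5*, another somatostatin receptor gene, had 11 UMIs in 8 male members (7.39 CPM) and 0 in the female members, while it had 2 UMIs in the 666 male Gh-poor barcodes and 0 in the 10270 *Sox2*-positive barcodes. The ghrelin receptor gene *Ghsr* had 2 UMIs in male and 1 UMI in female members. *Ghr*, the receptor for growth hormone itself, stood at 10.1 and 2.02 CPM. *Igf1r*, the receptor for insulin-like growth factor 1, was readily counted, at 71.9 CPM in male and 163 CPM in female members. *Insr*, the insulin receptor gene, stood at 15.5 and 12.1 CPM, *Sstr1* had 1 UMI in the male members, and *Gpr101* had none.

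**Figure D3:**
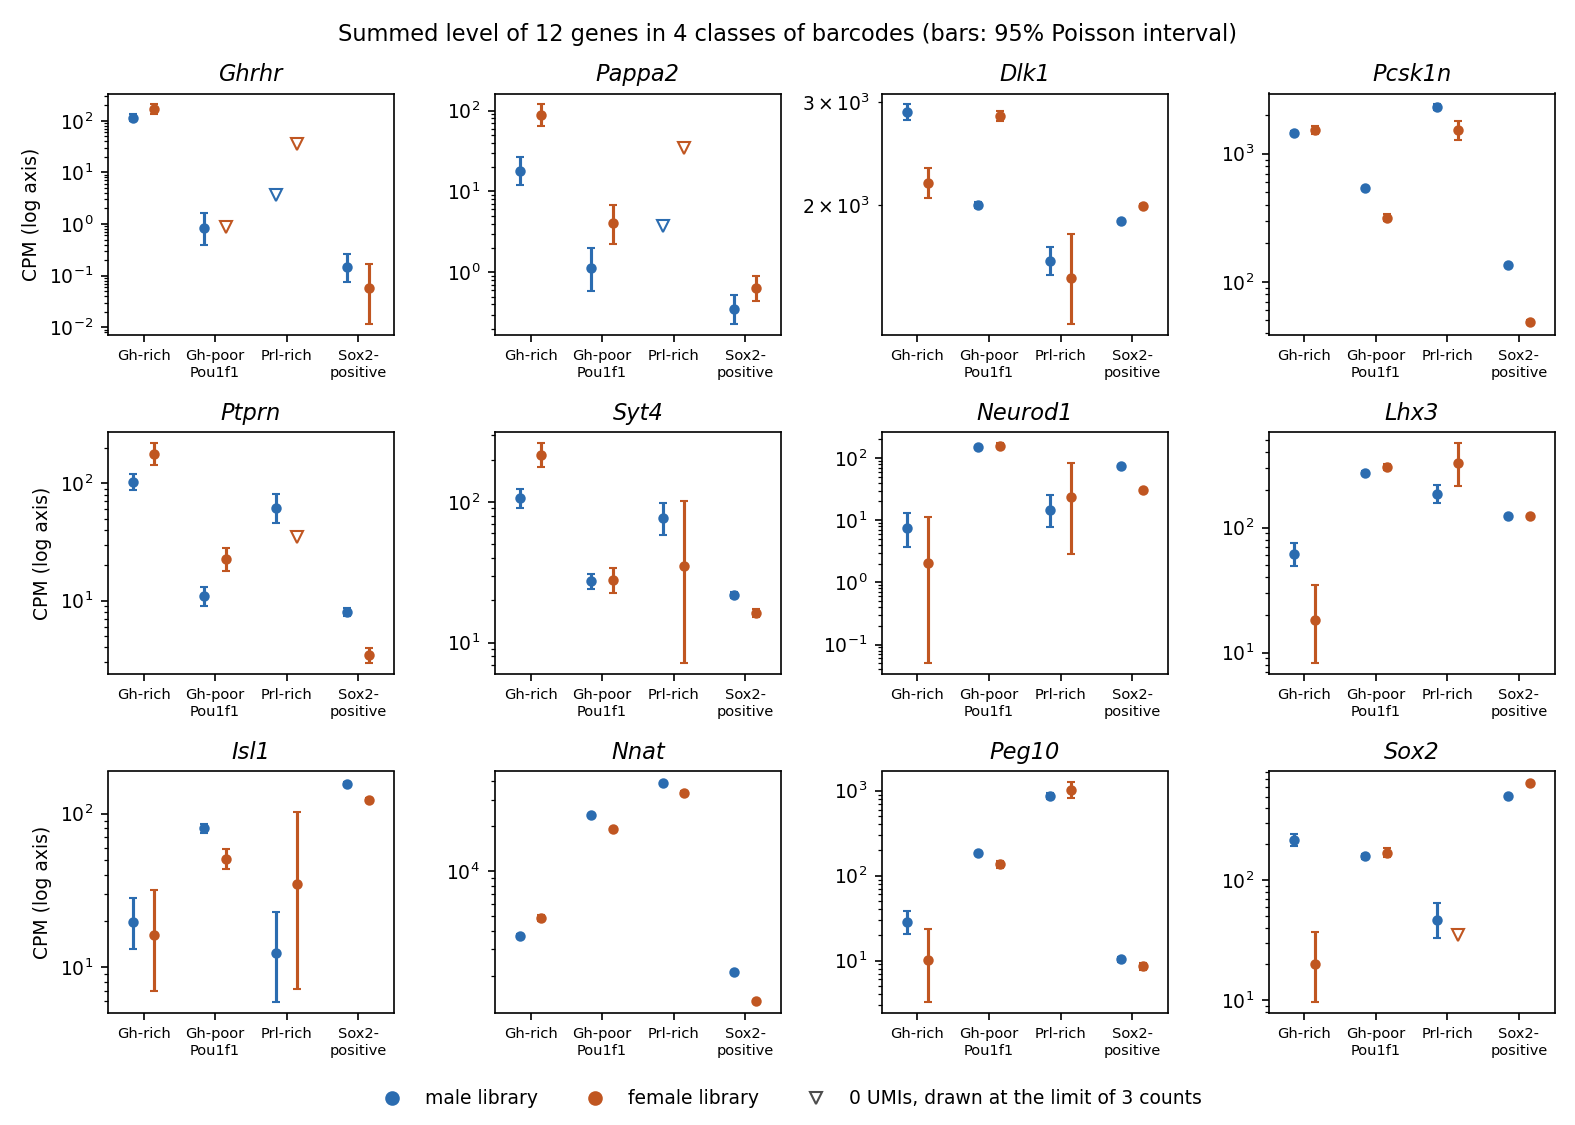
Level of 12 genes in CPM on a log axis, summed over the barcodes of 4 classes (x axis), in the male (blue) and female (orange) library, with 95% Poisson intervals (counting error). Open triangles mark 0 UMIs, drawn at the limit of 3 counts. *Ghrhr* and *Pappa2* are highest in the Gh-rich class, *Nnat* and *Peg10* are far lower there than in the Prl-rich class, and *Sox2* differs between the libraries within the Gh-rich class.

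Gh-rich barcodes were then set against *Pou1f1* barcodes low in *Gh* and *Prl* (at least 2 *Pou1f1* UMIs, under 10 *Prl* UMIs and *Gh* under 1%), 666 male and 250 female barcodes, called Gh-poor here. Other hormones were not limited in this class: its thyrotroph markers summed to 1844 CPM in male and 5211 CPM in female barcodes, and its corticotroph markers to 3469 and 3003 CPM, with single barcodes up to 183312 CPM and 274138 CPM. These classes were cut from the same UMIs, so that the contrast is a description of what accompanies *Gh*. Of 5126 genes with a mean of 25 CPM or more, 64 (1.25%) were at least 2-fold higher, with 5 CPM added to both levels, and 92 (1.79%) at least 2-fold lower in both libraries. Because *Gh* takes up so many UMIs, all other CPM values are pressed down: the median log2 ratio over all genes was -0.25 in male and -0.35 in female barcodes. With *Gh* and *Prl* left out of the totals the medians were 0.00 and 0.10, and 122 genes were higher and 54 lower. Limited to Gh-poor barcodes with *Cga*, *Tshb* and *Pomc* each under 2000 CPM and with the collagen limit, which left 532 male and 228 female barcodes and was chosen after seeing the data, the contrast gave 75 of 5128 genes higher (1.46%) and 92 lower (1.79%).

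Besides *Ghrhr*, the genes with the largest rise in both libraries came from several functions. *Ghrhr* was 135-fold (69.5 to 300.3) higher in male barcodes. In female barcodes it was 191-fold higher when the 0 UMIs of the Gh-poor barcodes were taken at their limit of 0.875 CPM. The lincRNA 5330439M10Rik stood at 33.6 CPM in male and 133 CPM in female members, against 0.757 and 0.583 CPM. *Cartpt*, the precursor of the CART neuropeptides, stood at 178 and 278 CPM against 29.9 and 42.9 CPM. It is 1 of the 5 genes of the lactotroph list used here, of which 3 were compared, *Cartpt* higher and *Angpt1* lower, against the Gh-poor and the Prl-rich class alike. *Gnmt*, a glycine methyltransferase, was 13.9-fold (9.81 to 19.99) and 11.5-fold (5.84 to 23.5) higher. *Dgkk*, a diacylglycerol kinase, was 16.7-fold and 35.4-fold higher, *Dnm3*, a dynamin, 10.99-fold and 24.9-fold, and *Elmod1*, a regulator of ARL GTPases, 7.11-fold and 15.1-fold. The other genes among the top 10 were *Ptprn*, *Ttyh1* and the lincRNA *Gm13373*.

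Secretory granule genes gave the largest share of higher calls among lists with 10 or more compared genes, with 4 of 10 compared genes higher, none lower, and median log2 ratios of 0.03 in male and 0.75 in female barcodes. *Pcsk1n*, which encodes the granule protein proSAAS, stood at 1452 CPM in male and 1536 CPM in female members, against 538 and 316 CPM. *Ptprn*, a membrane protein of dense-core granules, stood at 103 and 177 CPM against 10.97 and 22.4 CPM. *Pam*, the enzyme that amidates peptide hormones, was 2.09-fold and 3.15-fold higher, and *Resp18*, a protein of endocrine granules, 4.61-fold and 2.05-fold. The general granule protein *Chgb* was not among them, with log2 ratios of -0.85 in male and -0.20 in female barcodes, of which the female value changed sign to 0.28 without *Gh* and *Prl* in the total and to 1.02 against the limited class. Against that class the same 4 granule genes were higher, and their margin was wider for 2 of them: *Ptprn* stood there at 6.62 and 6.70 CPM, and *Resp18* at 1.998 and 1.68 CPM, from 16 and 5 UMIs, beside 286 and 238 CPM in the members.

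Of 10 compared genes of exocytosis 3 were higher and none lower, with medians of 0.22 and 0.81. They were *Syt4* and *Syt7*, which encode synaptotagmins, and *Rab3b*, a GTPase of secretory vesicles. *Syt4* stood at 106 CPM in male and 216 CPM in female members against 27.3 and 28.0 CPM. *Rab3b* was 2.38-fold and 2.40-fold higher. Against the limited class *Syt1* was higher as well, and *Syt4* was 5.001-fold and 16.9-fold higher. Protein folding and translocation in the endoplasmic reticulum was covered by 16 compared genes, of which none passed 2-fold in both libraries in either direction, with medians of -0.51 and -0.33 close to those of all genes.

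Transcription factors of the *Pou1f1* lineage ran the other way, with 7 of 17 compared genes lower and none higher, and medians of -1.09 in male and -1.77 in female barcodes. *Neurod1*, a proneural factor, stood at 7.39 CPM in male and 2.02 CPM in female members against 148 and 157 CPM in the Gh-poor class. *Lhx3*, a LIM factor of pituitary development, stood at 61.2 and 18.1 CPM against 273 and 305 CPM. *Isl1*, *Pitx1* and *Sox11* were also among the 7, with fold ratios from 0.230 to 0.460. Without *Gh* and *Prl* in the total, *Pitx1* (-0.83 and -0.94) and *Sox11* (-0.86 in the male library) were within 2-fold on the log2 scale. Against the limited class the same 7 genes were lower, with *Neurod1* there at 89.0 and 131 CPM. *Foxo1*, a forkhead factor, had ratios of 1.99 and 2.56 and was not called, with a log2 ratio of 0.77 in the male library after 5 CPM were added.

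Imprinted and growth genes were split, with 2 of 11 compared genes higher and 5 lower, and medians of -0.56 and -0.38. *Nnat*, which encodes neuronatin, a small protein of the endoplasmic reticulum, stood at 3695 CPM in male and 4869 CPM in female members against 23641 and 19155 CPM. *Peg10*, a gene derived from a retrotransposon, stood at 28.2 and 10.1 CPM against 183 and 136 CPM. *Cdkn1c*, an inhibitor of the cell cycle, was at 0.258 and 0.137 times, and *Mest* at 0.386 and 0.166 times the Gh-poor level. *Gnas*, which encodes the G protein subunit through which GHRHR raises cyclic AMP, stood at 7175 and 5923 CPM against 16716 and 18301 CPM. Its log2 ratio in the male library was -0.95 once *Gh* and *Prl* were left out, and the counts do not part it from the overlapping transcripts of its locus.

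Higher than in the Gh-poor class were *Plagl1*, a zinc finger factor, at 183 and 458 CPM against 59.9 and 59.8 CPM, and *Grb10*, an adaptor that dampens insulin and growth factor receptors, at 2.64 and 2.55-fold. Of 7 compared genes of cyclic AMP signalling, 1 was higher and 1, *Gnas*, was lower. The higher gene was *Prkar2b*, a regulatory subunit of protein kinase A, at 2.40-fold (1.88 to 3.05) in male and 4.43-fold (3.04 to 6.40) in female barcodes. Of 4 compared genes that mark differentiating progeny of stem cells, 3 were lower, *Lef1*, *Hes6* and *Mycl*. *Lef1*, a mediator of WNT signals, stood at 15.5 and 6.05 CPM against 52.5 and 58.9 CPM. Among 7 compared genes of growth arrest 2 were lower, *Cdkn1c* and *Gadd45g*, and 1 of 3 genes of insulin-like growth factor binding was higher, *Pappa2*. None passed of 5 other receptor genes, 3 channel genes and 7 Notch and stem cell factors, and the last list had medians of 0.59 in male and -2.39 in female barcodes.

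**Figure D4:**
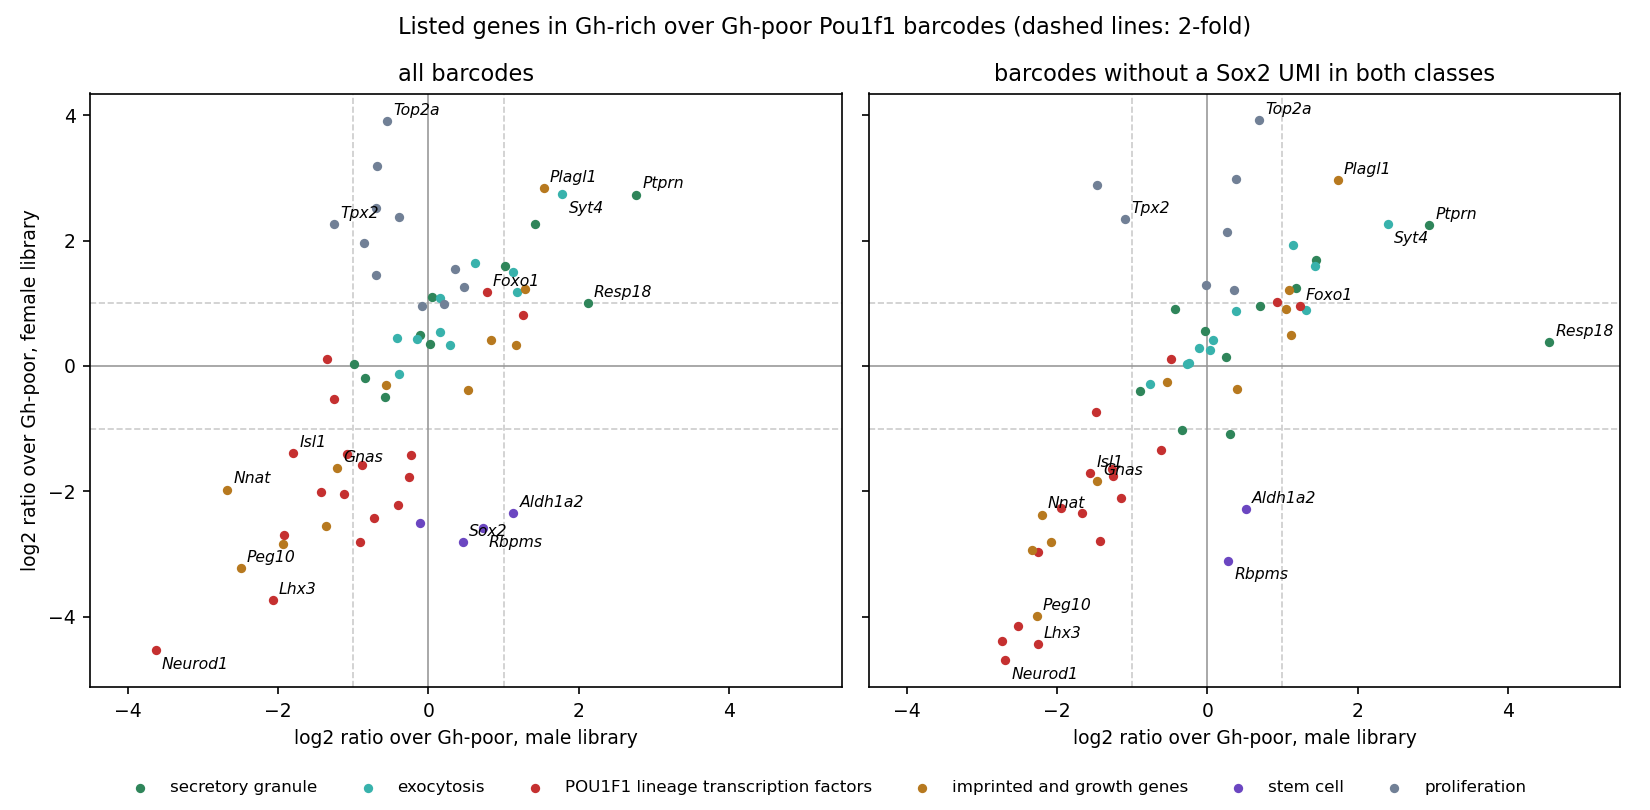
Log2 ratio of Gh-rich over Gh-poor *Pou1f1* barcodes in the male (x axis) and female (y axis) library for compared genes of 6 lists, for all barcodes (left) and without barcodes that hold a *Sox2* UMI in either class (right), with 5 CPM added to both levels. *Ptprn* and *Syt4* lie in the upper right and *Neurod1*, *Lhx3*, *Nnat* and *Peg10* in the lower left of both panels. *Neurod1* and *Lhx3* lie below -2 on both axes in either panel, and *Sox2* is absent on the right because barcodes with it were left out of both classes.

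The contrast was repeated with every barcode that held a *Sox2* UMI left out of both classes, which kept 16 male and 28 female members and 351 male and 115 female Gh-poor barcodes. *Sox2* itself is then at 0 by construction. Of 5034 genes, 77 (1.53%) were at least 2-fold higher and 253 (5.03%) at least 2-fold lower in both libraries. Of the granule genes *Pcsk1n*, *Pam* and *Ptprn* were higher, 3 of 11 compared, and of the exocytosis genes *Syt1*, *Syt4* and *Syt7*, 3 of 11. *Ptprn* was 10.4-fold and 5.29-fold higher, and *Syt4* 6.07-fold and 5.23-fold. *Resp18* and *Rab3b* were not called here, with female log2 ratios of 0.38 and 0.89 beside male ratios of 4.55 and 1.31.

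The transcription factors had 12 of 17 compared genes lower, now also *Zbtb20* and *Sox4* among others, and none higher. *Zbtb20* stood at 159 CPM in male and 128 CPM in female members against 386 and 443 CPM. *Foxo1* had log2 ratios of 1.23 and 0.95 and was not called. The same 5 imprinted genes were lower and the same 2, *Plagl1* and *Grb10*, higher. *Egr1*, *Ier2* and *Atf3*, which respond within minutes to stimuli and to tissue handling, were lower among 7 early response genes compared, whereas over all members none of the 7 passed. *Tshb* stood at 2226 CPM in the female Gh-poor barcodes of this contrast, so that other hormones were present here too.

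Prl-rich barcodes (a *Pou1f1* UMI, at least 10 *Prl* UMIs, more *Prl* than *Gh*, and the same *Cga* and collagen limits) are a further, hormone-bearing class for comparison, with 52 male and 6 female barcodes. Of 5135 genes, 72 (1.4%) were at least 2-fold higher and 175 (3.41%) lower in the Gh-rich class in both libraries. Without *Gh* and *Prl* in the totals these counts were 144 and 77, so the split between higher and lower genes depended on the base. With 6 female barcodes a count of 0 is set at a limit of 34.9 CPM, and folds against a count of 0 are taken at the limit of the class.

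*Ghrhr* had 0 UMIs in the Prl-rich barcodes of either library. Taken at the limits, it was 31.1-fold higher in male and 4.79-fold higher in female members. *Pappa2* also had 0 UMIs there, for 4.91-fold and 2.54-fold at the limits. *Gnmt* had 0 UMIs in the male Prl-rich barcodes, for 17.8-fold at the limit. *Resp18* stood at 286 CPM in male and 238 CPM in female members, against 45.6 CPM and 0 UMIs. *Foxo1* stood at 24.9 and 54.4 CPM against 9.85 and 11.6 CPM. The ranked genes that were higher also included *Zfp36l1* and *Prrx1*, which stood at 515 and 118 CPM in the *Sox2*-positive barcodes of the male library. Without a *Sox2* UMI, *Zfp36l1* was at 44.9 CPM in male and 2.25 CPM in female members, against 293 and 78.6 CPM over all members.

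Large falls against the Prl-rich class included those of *Peg10* and *Nnat*. *Peg10* stood at 28.2 CPM in male and 10.1 CPM in female members against 862 and 1013 CPM, log2 ratios of -4.71 and -6.08. *Nnat* stood at 3695 and 4869 CPM against 38662 and 33264 CPM. Of the granule genes 2 were lower here, *Chgb*, at 412 and 742 CPM against 4845 and 4004 CPM, and *Scg3*, a granin, at 107 and 220 CPM against 857 and 1036 CPM. *Thrb*, a thyroid hormone receptor gene, stood at 47.0 and 64.5 CPM against 196 and 244 CPM. *Gnai1*, an inhibitory G protein subunit, stood at 8.06 and 14.1 CPM against 87.5 and 175 CPM. Over all members *Resp18* was higher against both the Gh-poor and the Prl-rich class. It was the only 1 of 11 compared granule genes called higher against the Prl-rich class, with median log2 ratios of -1.09 and -0.18. Of 12 compared exocytosis genes *Syt1* was higher and *Rab27b* lower. *Pcsk1n*, *Pam*, *Ptprn*, *Syt4*, *Syt7* and *Rab3b*, which were higher against the Gh-poor class, were not called higher against the Prl-rich class.

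Some members held transcripts of dividing cells. At least 7 of 14 proliferation genes had a UMI in 11 of 65 male and 6 of 30 female members, and 12 male and 15 female members had none. The 11 male barcodes held 2149 to 7377 *Gh* UMIs, with *Gh* shares from 4.77 to 29.4%, and the 6 female barcodes 3956 to 9200 *Gh* UMIs, with shares from 14.6 to 35.3%. *Ghrhr* had a UMI in 10 of the 11 and in all 6. The 2 sets differed in stem cell transcripts: *Sox2* had a UMI in 10 of the 11 male barcodes and in 0 of the 6 female barcodes. Their median depth was 30492 UMIs in male and 25478.5 UMIs in female barcodes, against 22475 and 13407 UMIs in the other members, and Scrublet marked 1 and 2 of them. At 5000 UMIs each, averaged over 20 draws, 25.3% of 59 male and 22.6% of 29 female members held at least 2 of the genes, against 17.3% and 11.95% of Gh-poor barcodes. In *Sox2*-positive barcodes the share was 32.1% and 27.2%, and it stood at 27.9% of 52 male and 5.83% of 6 female Prl-rich barcodes.

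*Top2a* and *Mki67*, both genes of dividing cells, stood higher in the female members. *Top2a*, a topoisomerase, stood at 51.1 CPM in male and 393 CPM in female members, and *Mki67* at 28.2 CPM (20.3 to 38.2) and 149 CPM (117 to 187). All 195 female *Top2a* UMIs fell in 6 barcodes, and the 76 male UMIs in 12. Over the Gh-poor class, which stood at 77.0 and 21.6 CPM of *Top2a*, none of 11 compared proliferation genes passed 2-fold in the same direction in both libraries, with median log2 ratios of -0.55 in male and 1.96 in female barcodes.

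Between the libraries, 299 of 4752 genes (6.29%) were at least 2-fold higher in male and 176 (3.7%) at least 2-fold higher in female members. Without *Gh* and *Prl* in the totals the counts were 264 and 375, and each count compares 2 libraries, not the sexes. The ranked genes higher in the male members were, besides *Pomc*, *Klf2*, *Gpha2*, *Hes1* and *Ifitm3*. *Hes1*, an effector of Notch signals, stood at 351 CPM in male and 10.1 CPM in female members, and at 576 and 1209 CPM in *Sox2*-positive barcodes. *Ifitm3*, an interferon-induced membrane protein, stood at 466 and 18.1 CPM. *Klf2*, a Kruppel-like factor, and *Gpha2*, a glycoprotein hormone alpha chain, had 0 UMIs in the female members. They were 22.4-fold and 19.4-fold higher in the male members when that 0 was taken at its limit. The lower ends of the exact intervals were 18.1-fold and 15.6-fold. All 4 stood at 64.8 CPM or more in *Sox2*-positive barcodes of both libraries. The ranked genes higher in the female members, *Hist1h3c*, *Nusap1*, *Kif11*, *Top2a* and *Spc25*, belong to dividing cells, and each was counted in 5 or 6 of the 30 female barcodes.

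Among members without a *Sox2* UMI, 266 of 4583 genes (5.8%) were at least 2-fold higher in the 16 male and 284 (6.2%) in the 28 female barcodes. *Ifitm3*, *Rbpms* and *Arc* were among the highest ranked in the male barcodes, with 122 CPM of *Ifitm3*, 69.4 CPM of *Rbpms* and 57.1 CPM of *Arc*, each at 1 UMI in the female barcodes. *Rbpms* belongs to the stem cell markers, which these male barcodes still held. *Pomc* also ranked there, but 1 barcode held 1903 of its 1942 UMIs, and without it 180.1 CPM remained beside 67.5 CPM in the female barcodes. *Hist1h3c*, *Hist1h1b*, *Nusap1*, *Hist1h2ae* and *Prc1* ranked highest in the female barcodes. The intervals of the ratio included 1 for *Chgb*, *Ptprn* and *Foxo1* in these smaller sets, and not for *Pcsk1n* and *Igf1r*. *Chgb* stood at 722 and 797 CPM, a male to female ratio of 0.907 (0.753 to 1.09), *Ptprn* at 131 and 182 CPM (0.716, 0.460 to 1.09), and *Foxo1* at 36.7 and 51.8 CPM (0.710, 0.289 to 1.59). *Pcsk1n* stood at 2138 and 1604 CPM, a ratio of 1.33 (1.19 to 1.49). *Igf1r* stood at 44.9 and 167 CPM, a ratio of 0.270 (0.129 to 0.511).

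Within members, genes were ordered by their Spearman correlation with the *Gh* share over barcodes, with levels taken over UMIs other than *Gh* and *Prl*. This describes 65 male and 30 female barcodes that share a library, and depth differed between them. Of 2477 genes compared, ranked by the mean of the 2 coefficients, *Fth1*, the heavy chain of the iron store ferritin, came first with 0.54 in male and 0.70 in female members. *Tvp23b*, a Golgi membrane protein, followed closely with 0.62 and 0.61 and comes first by the lower of the 2 coefficients, and the ribosomal protein gene *Rpl10* 0.54 and 0.45. *Npepl1*, *Ccnd3*, *Npc2*, *Rps3*, *Bmyc*, *Kcnmb4* and *Rpl17* completed the first 10. *Ghrhr* had 0.26 and 0.38, *Sox2* -0.22 and -0.12, and *Pou1f1* -0.10 and -0.03. All 3 thus ranked below the first 10 in this ordering.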

How the data were processed

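Single-cell RNA was measured in 2 libraries of sorted Sox9iresGFP cells, 1 per sex. Reads were aligned by the authors to mm10 with an added eGFP sequence (STAR 2.5.1b within Cell Ranger 3.0.2), and the deposited values are raw UMI counts per gene and barcode for 31055 features. The 10x chemistry version is given differently in the labels and the methods. Barcodes with fewer than 1000 genes (2513 male, 174 female) or over 10% mitochondrial UMIs (47 and 18) were removed, which left 103324792 and 62682018 UMIs.

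Counts were summed per library and class in Python 3.11.15 (scipy 1.17.1) and scaled to CPM. Genes at a mean of 25 CPM were compared, with 5 CPM added, and a call means at least 2-fold in the same direction in both libraries. Thinning drew 5000 UMIs per barcode, *Gh* included, without replacement and left out shallower ones (6 male, 1 female member). Scrublet (scanpy 1.11.5) marked the highest scores, a share that grows by 0.8% for each 1000 barcodes in the library, and marked barcodes were kept. Calculations were tested on simulated data. The genes named are those of the marker and function lists, the 10 largest rises and falls in each class contrast ranked by the smaller log2 ratio, the 5 largest between libraries, and the 10 most like *Gh* by the mean correlation over both libraries (genes of the selection, mitochondrial genes and, between libraries, *Xist* and Y-linked genes left out). Members and lists were chosen with earlier results of these data known. Other limits, bases and doublet settings were tried. Some genes that the naming rule covers are not reported here. Gene positions come from GENCODE vM21.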

Additional observations from a re-analysis of the deposited data

Results flagged for a closer look

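The 2 libraries moved in opposite directions for 3 listed genes in Gh-rich over Gh-poor *Pou1f1* barcodes, which drew a closer look. *Aldh1a2*, a retinoic acid enzyme and stem cell marker, had log2 ratios of 1.13 in male and -2.35 in female barcodes. *Hes1* had 1.07 and -4.46. *Tpx2*, a spindle gene, had -1.26 in male and 2.26 in female barcodes. With 1 library per sex these differences were not tested.

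Barcodes outside the selection also held *Gh*. At 1% or more of UMIs but without a *Pou1f1* UMI there were 37 male and 13 female barcodes. The 37 had a median of 2517 UMIs and a *Gh* share of 4.21%, and 23 of them held a *Sox2* UMI. The 13 had a median of 9775 UMIs and a share of 1.57%, and all 13 held a *Sox2* UMI. *Ghrhr* had a UMI in 2 barcodes of either library. Under 1000 genes, 4 male and 3 female barcodes otherwise met the selection.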

How the results depend on the processing

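Of the counts, ratios and shares that answer a comparison, 91 values under other settings stayed close to those reported and 35 moved; among single genes 188 stayed and 53 moved. No called value changed sign, but 3 log2 ratios within 2-fold did against Gh-poor barcodes: female *Dlk1* (-0.38) was 0.10 without *Gh* and *Prl* in the totals, male *Igf1r* (0.14) was -0.40 without *Sox2* barcodes, and female *Chgb* (-0.20) was 0.28 without *Gh* and *Prl*, 0.33 at a mitochondrial share of at most 5%, 0.60 as a mean over barcodes, and 0.99 and 1.02 under the limits on the Gh-poor class. Counts of genes are given below as higher and lower against Gh-poor *Pou1f1* barcodes (reported as 64 and 92), higher and lower against Prl-rich barcodes (72 and 175), and male-higher and female-higher (299 and 176). With no filter on low levels they were 143 and 218, 281 and 294, and 1202 and 497. At a mean of 100 CPM or more they were 11 and 30, 10 and 60, and 59 and 31, and with 20 CPM added 37 and 46, 39 and 82, and 166 and 90. Without *Gh* and *Prl* in the totals they were 122 and 54, 144 and 77, and 375 female-higher. Leaving out the highest Scrublet scores gave 112 female-higher genes. Leaving barcodes with a *Sox2* UMI out of every class gave 16 male members, a ratio of shares of 0.3998, 253 lower against Gh-poor, 305 lower against Prl-rich and 284 female-higher genes. Without thinning, *Ghrhr* had a UMI in 86.2% of male and 86.7% of female members (32.2% and 58.6% thinned), *Pappa2* in 30.8% and 66.7% (8.47% and 24.1%) and *Sox2* in 75.4% of male members (55.9%), and thinned to 3000 UMIs *Sox2* was in 38.7%. The cause was not tested beyond the construction of each setting. Chosen after seeing the data, *Cga* and collagen limits on the Gh-poor class gave 74 and 89 genes, limits on *Tshb* and *Pomc* as well gave 75 and 92, and leaving out 1 barcode brought male *Pomc* from 1419 to 143 CPM. No paired analysis was possible because each sex has 1 library, and for the same reason no replicate could be left out. The depth limits what a count of 0 shows, at 6.05 CPM in female members and 34.9 CPM in female Prl-rich barcodes.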
